A study of Bos taurus with 6 samples.

Results

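The DNA methyltransferases examined here are DNMT1, DNMT3A and DNMT3B. All probe sets whose platform annotation gave one of these symbols were taken, on all 6 arrays. This gave 3 genes of 9155 with a symbol and 6 probe sets of 24016 tested: 1 for DNMT1, 3 for DNMT3A and 2 for DNMT3B. The samples were bovine blastocysts collected on day 7 and hybridized to the Affymetrix GeneChip Bovine Genome Array, each array carrying 1 biotin-labelled sample. All embryos came from 18 Simmental heifers that had been synchronized, superovulated and inseminated. In the superovulated group the embryos stayed in these animals until collection. In the synchronized group, 2-cell embryos were recovered on day 2 from 9 of the heifers and transferred by endoscope to recipients that had been synchronized but not superovulated. The synchronized embryos therefore also came from superovulated donors, and they alone were flushed and transferred, so the effects of the recipient tract and of the handling cannot be told apart. Each group held 3 arrays. The labels state neither the number of blastocysts per sample nor whether a group's samples came from different animals, so p-values cover the spread among these arrays alone, and that spread may be technical.

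DNA methyltransferases attach a methyl group to cytosine, mostly where cytosine is followed by guanine. DNMT1 is the maintenance enzyme, which copies the methylation pattern to the new strand after replication, guided to the replication fork by UHRF1. DNMT3A and DNMT3B are the de novo enzymes, which methylate unmarked DNA. In mammals, methylation inherited from the gametes is largely lost in the early embryo and is later laid down again, while imprinted loci keep theirs.

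Most probe sets lay near background. The array medians ranged from 2.75 to 2.80 on the log2 scale and the upper quartiles from 3.08 to 3.14, and a signal above log2 4 is called bright below. The arrays held between 973 and 1894 bright probe sets, and any pair of arrays correlated at r between 0.752 and 0.974 over all probe sets. Probe sets of 1 array are no independent replicates. The hybridization controls, spiked in before hybridization, were higher on every synchronized array: their mean was 12.27, 12.31 and 12.30 in the superovulated and 12.82, 12.55 and 13.26 in the synchronized group, and their part in the differences below was not tested. Superovulated array 3 and synchronized array 2 stood apart in having the most bright probe sets of their groups, 1894 and 1850. Signals of the trophectoderm keratin KRT18 (7.74 to 8.11 superovulated, 3.55 to 4.90 synchronized) and of the endoderm factor GATA6 (6.41 to 7.00 and 3.95 to 5.21) were bright on every superovulated array. Of the 3 synchronized arrays, KRT18 was bright on 1 and GATA6 on 2. The blastocyst markers KRT8, SOX2 and CDH1 stayed between 2.27 and 3.52 on every array and gave no usable signal.

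DNMT3A was the methyltransferase with a call, as higher on 1 of 3 probe sets, which was kept under 4 of 14 alternatives. Of its probe sets 1 was bright, which read 5.36, 5.38 and 5.50 on superovulated arrays 1 to 3, against 4.13, 3.54 and 3.56 on synchronized arrays 1 to 3. The superovulated arrays lay within 0.14 of each other, all lay above every synchronized array, and on the synchronized side only array 1 was bright. The mean rose from 3.74 ± 0.34 (SD, n = 3) to 5.41 ± 0.08 (SD, n = 3), a log2 difference of 1.67 ± 0.18 (SE) or 3.18-fold, with a 95% interval of 2.31 to 4.38-fold. In limma's moderated test with Benjamini-Hochberg adjustment over all probe sets this gave adjusted p = 0.0426. Because the synchronized mean lay near background, where the authors' normalization compresses values, the size of the rise is uncertain.

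This was 1 call among 6 methyltransferase probe sets, whereas 0.716% of all probe sets were called, 0.695% as higher and 0.0208% as lower in the superovulated group. Bright probe sets were called as higher more often, at 7.82% of the 1406 with a mean above log2 4, and this DNMT3A probe set was the single methyltransferase probe set among them. It entered that set through its superovulated values, since its synchronized mean was 3.74, so nothing is read from this share. Those 1406 probe sets were higher in the superovulated group as a body, with a median difference of 0.59 and a mean difference of 0.69. Over all 24016 probe sets the median was -0.02. Measured from that mean, DNMT3A was higher by 0.98, which was not called (adjusted p = 0.0949 by limma after centring each array on its bright probe sets). That fit gave all 6 methyltransferase probe sets the same SE of 0.38. The dim DNMT3A probe sets described below had the same adjusted p in it, so this p is not specific to the bright one.

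Across superovulated arrays 1 to 3 the number of bright probe sets (1457, 1578 and 1894) and the DNMT3A signal (5.36, 5.38 and 5.50) rose together. They did not move together on synchronized array 2. Its 1850 bright probe sets were within the superovulated range of 1457 to 1894, and its DNMT3A signal of 3.54 was the lowest of the 6. The part of the number of bright probe sets in the DNMT3A difference was not tested. Leaving out single arrays kept the difference between 1.57 and 1.86, but the call was kept in 1 of 6 cases, without synchronized array 1 (adjusted p = 0.0182). Without superovulated arrays 1, 2 and 3 in turn, adjusted p was 0.136, 0.164 and 0.151, and without synchronized arrays 2 and 3 it was 0.0908 and 0.155.

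**Figure D1:**
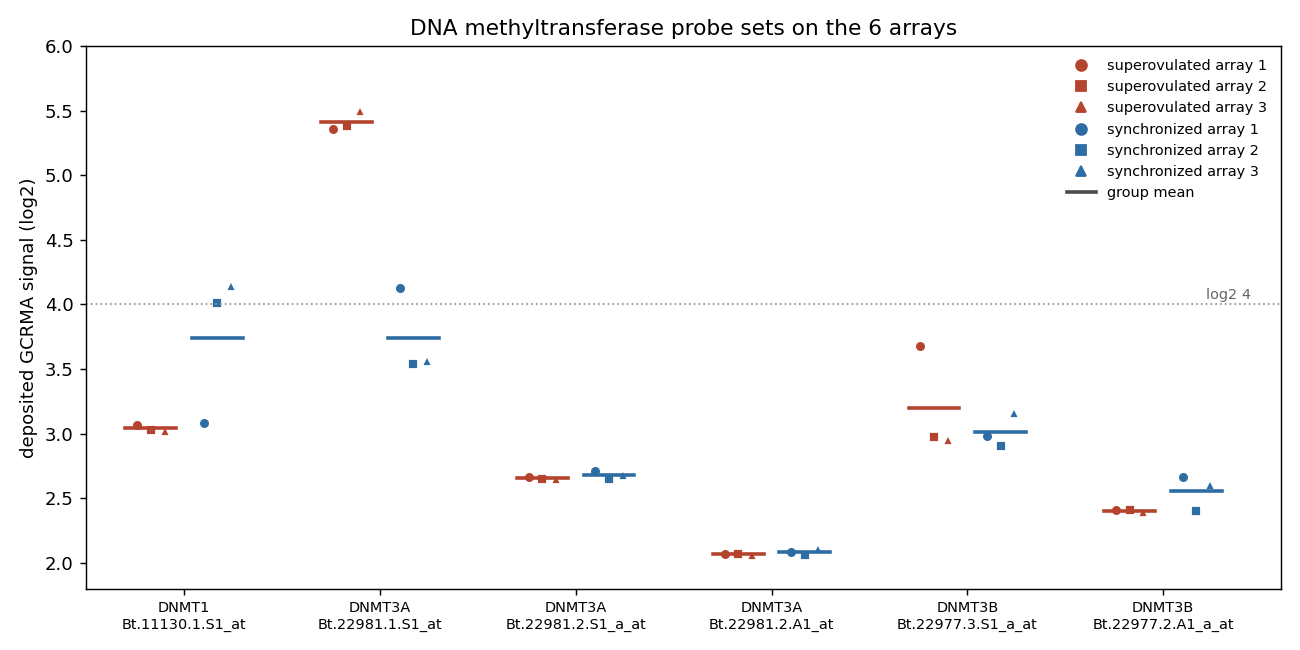
Deposited log2 signal of the 6 methyltransferase probe sets, with red symbols for the superovulated and blue symbols for the synchronized arrays, marker shape for the array number and bars for the mean of 3 arrays. The groups separate widely for the first DNMT3A probe set (5.36 to 5.50 against 3.54 to 4.13), while the other 2 DNMT3A probe sets lie flat between 2.06 and 2.71.

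The remaining DNMT3A probe sets gave no signal in either group. The one with the suffix S1_a_at read 2.66, 2.65 and 2.65 on superovulated arrays 1 to 3, and 2.71, 2.65 and 2.68 were the synchronized values. The one with the suffix A1_at read 2.07, 2.07 and 2.06 against 2.08, 2.06 and 2.11. Both are annotated from the same sequence record, and the bright probe set from another, so the dim pair are not independent readings. Their differences were -0.03 (95% interval -0.08 to 0.03) and -0.02 (-0.07 to 0.04), with limma adjusted p = 0.636 and 0.671. The change of the bright probe set exceeded theirs by 1.70 and 1.69, each with p = 0.1 in a two-sided exact permutation test over arrays, which is the smallest p that 3 arrays against 3 allow. Both dim probe sets stayed at background on every array, so these values restate the rise of the bright one, and neither dim set showed it. A probe set at background in 1 group can rise in the other, as that of CDK1 did (2.58 to 2.79 synchronized, 4.67 to 4.76 superovulated). Whether the dim pair can detect DNMT3A was not tested.

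Of 126 genes with a call, 47 had several probe sets, and in 2 of these every probe set was called. A probe set that is dim or not called does not back a called one, and does not by itself show it to be wrong. The GAPDH control probe sets, which probe the transcript of a glycolytic enzyme at its ends and middle, were read as a sign of RNA quality. At the 3′ end the superovulated arrays read 8.67, 8.80 and 9.14, against 7.20, 8.35 and 8.22 for synchronized arrays 1 to 3. In the middle they read 3.67 to 4.2, and at the 5′ end 2.60 to 3.03. The 3′ signal was thus higher on every superovulated array, while the 5′ end was at background on all 6. The 3′ control of actin was at background on every array, at 2.61 to 2.71 superovulated and 2.64 to 3.03 synchronized, and was not higher in the superovulated group. Where the DNMT3A probe sets lie along the transcript was not analysed here, and the part that position has in the difference between them was not tested.

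**Figure D2:**
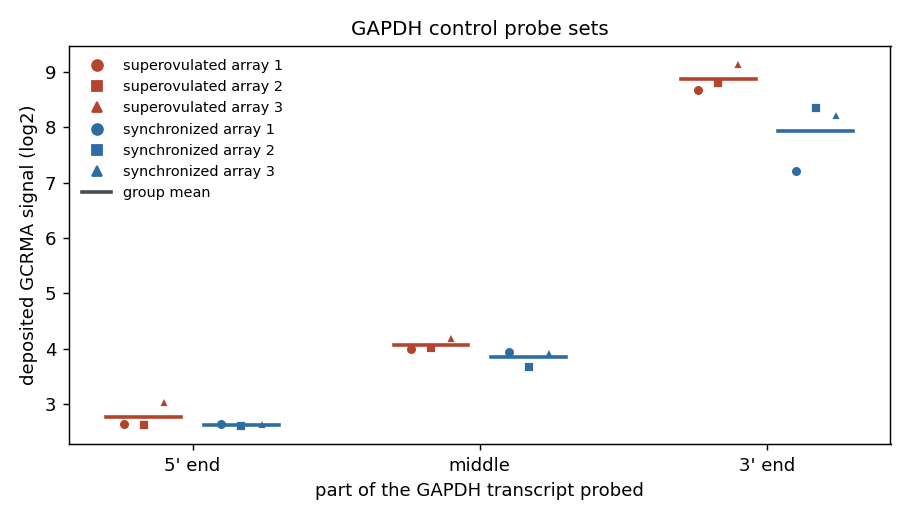
Deposited log2 signal of the GAPDH control probe sets by the part of the transcript they probe, for each superovulated (red) and synchronized (blue) array, with bars at group means. The 3′ probe set reads 8.67 to 9.14 superovulated and 7.20 to 8.35 synchronized, while the 5′ probe set is at background at 2.60 to 3.03. Levels of different probe sets share no scale.

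DNMT1, the maintenance enzyme, read lower in the superovulated group but did not pass the test. Its single probe set read 3.07, 3.03 and 3.02 on superovulated arrays 1 to 3, against 3.08, 4.01 and 4.14 for the synchronized arrays. All superovulated arrays and synchronized array 1 were near background, and synchronized arrays 2 and 3 just reached the bright range. The groups did not overlap, but the gap between the highest superovulated and the lowest synchronized array was only 0.01. The means were 3.04 ± 0.03 and 3.74 ± 0.58 (SD, n = 3 each), a log2 difference of -0.70 ± 0.30 (SE) with a 95% interval of -1.48 to 0.07 and limma adjusted p = 0.636. The interval includes 0 and also a fall to 0.359 of the synchronized level. Without synchronized array 1 the difference was -1.03 and passed (adjusted p = 0.0325). It also passed, at -1.40 (adjusted p = 0.0178), when arrays were centred on their bright probe sets. That centring lowers every difference by the same 0.69, and most of its calls (318 of 529) were falls. It also gave every methyltransferase probe set the same SE of 0.38, so the p of that fit does not reflect the spread of DNMT1 itself.

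Among the methyltransferase probe sets, the groups separated without overlap in 2 of 6, 1 higher and 1 lower in the superovulated group. Over all probe sets this held for 13.3%, with 5.42% higher and 7.89% lower. The spread of DNMT1 and DNMT3A within the synchronized group ran in opposite directions, since array 1 was lowest for DNMT1 and highest for DNMT3A.

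**Figure D3:**
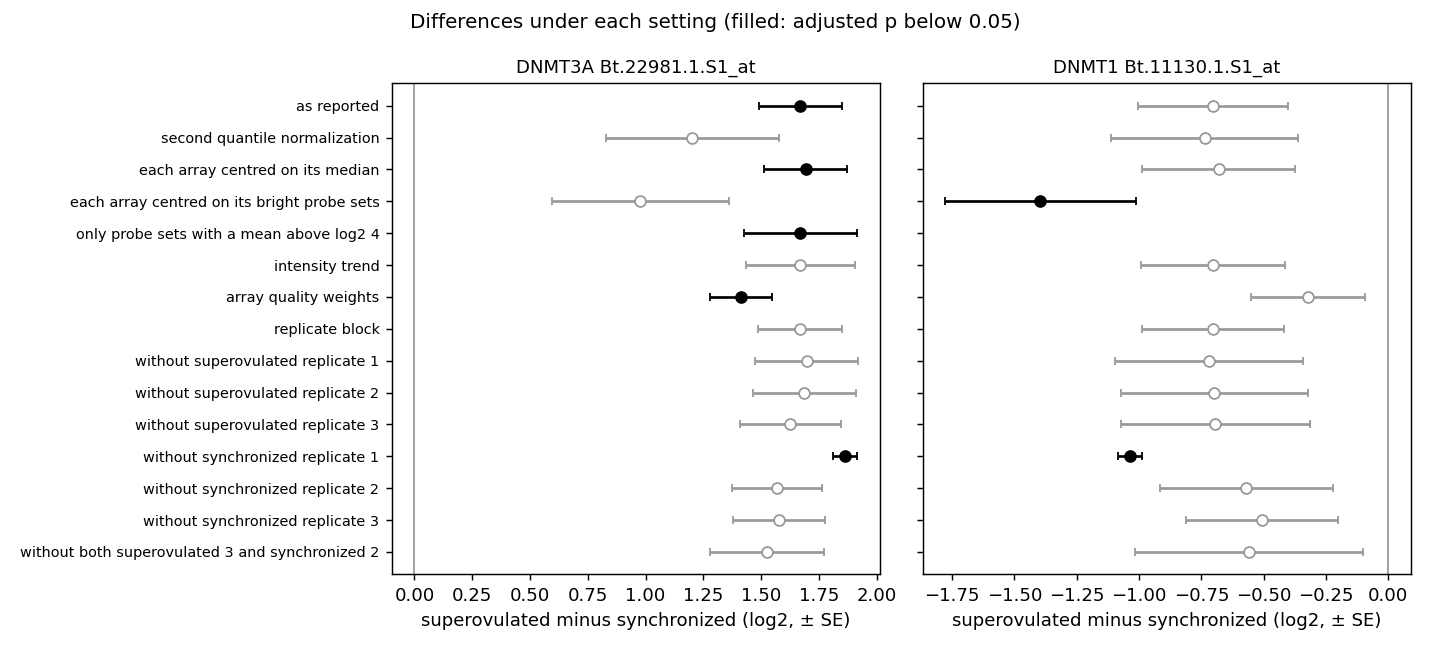
Log2 difference, superovulated minus synchronized, with its SE for the bright DNMT3A probe set (left) and the DNMT1 probe set (right) under the reported fit and each alternative, filled where the adjusted p was below 0.05. DNMT3A stays positive, from 0.98 to 1.86, and DNMT1 negative, from -1.40 to -0.32. DNMT1 has no value in the test of bright probe sets, since its mean was below log2 4.

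DNMT3B, the other de novo enzyme, was near background in both groups. Its S1_a_at probe set read 3.68, 2.97 and 2.95 in the superovulated group, against 2.98, 2.90 and 3.16 in the synchronized group. Superovulated array 1 was the high value, and the other 5 arrays lay within 0.26 of each other. The difference was 0.19 ± 0.23 (SE), with a 95% interval of -0.40 to 0.77 and limma adjusted p = 0.671. Without superovulated array 1 it was -0.05, and after centring on bright probe sets it was -0.51, so no direction can be given.

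The second DNMT3B probe set, with the suffix A1_a_at, read 2.41, 2.41 and 2.39 in the superovulated group, against 2.66, 2.40 and 2.60 in the synchronized group. Synchronized arrays 1 and 3 were slightly above the rest, and array 2 fell among the superovulated values. Its difference was -0.15 ± 0.07 (SE), with a 95% interval of -0.34 to 0.04 and limma adjusted p = 0.636. The changes of both DNMT3B probe sets, near background, differed by 0.34 (two-sided exact permutation test, p = 0.3). Both carry the suffix that Affymetrix gives to sets matching several transcripts of a gene, so neither separates DNMT3B splice forms.

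The difference between the enzymes can be read only as a difference in change, since signals of different probe sets share no scale. On that reading DNMT3A was higher on 1 of its 3 probe sets, a call that held under 4 of 14 alternatives. These were median centring (limma adjusted p = 0.0483), array weights (0.0166), synchronized array 1 left out (0.0182) and the test of bright probe sets alone. Nothing is read from the last, which DNMT3A entered through its superovulated values. Besides the other left-out arrays and the centring on bright probe sets, the call was lost when the arrays were quantile normalized again (difference 1.20, adjusted p = 0.694). It was also lost when the variance followed intensity (0.0763) and when replicate number was a block (0.229). The DNMT1 interval ran from -1.48 to 0.07, and the DNMT3B intervals included both directions. Of 10 measured blastocyst and lineage markers, 2 were called as higher (1.3% over all genes with a symbol, each by its brightest probe set) and 0 as lower. The median difference was 0.57, with 6 of 10 above 0, against a median of -0.02 and 3190 of 9155 above 0 over all genes. KRT8, SOX2 and CDH1 were at background, and ATP1B1, a sodium pump subunit, differed by -0.32. Their mean signal per array was 4.2 to 4.31 in the superovulated and 3.04 to 3.43 in the synchronized group, so it separated the groups as DNMT3A did. The called genes were KRT18 (difference 3.89) and DAB2 (2.21, but -0.13 on its dimmer probe set), an adaptor of clathrin-dependent uptake. POU5F1, the pluripotency factor (0.81), and AQP3, a blastocyst water channel (0.77), were next and did not pass. In samples of whole embryos, fewer cells of a type and less RNA per cell cannot be told apart, and the part of the lineage markers in the DNMT3A difference was not tested.

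In the oviduct and uterus list 1 of 9 genes was called as higher and 0 as lower (1.3% and 0.0218% over all genes with a symbol). The median difference was -0.03, with 3 of 9 differences above 0, against 3190 of 9155 over all genes. The mean of this list per array, 3.44 to 3.54 superovulated and 2.94 to 3.01 synchronized, was carried by 2 genes. The called gene was complement C3 (2.56, but -0.19 and 0.01 on its other probe sets). The other was EPCAM (2.38, not called), an adhesion molecule that embryonic epithelium shares, followed by SPP1 (-0.06) and PGR (-0.21). The oviduct-defining OVGP1 was at 2.19 to 2.26 on every array. In the cumulus and granulosa list 1 of 14 was called as higher and 0 as lower. The median difference was -0.10 with 4 of 14 above 0 (3190 of 9155 over all genes), and the mean was 3.19 to 3.75 against 3.18 to 4.05. The called gene was COL1A2 (0.66, from 3 to 3.66, near background, and 0.04 on its dimmer probe set). PTGS2 (1.29), HAS2 (0.27) and STAR (-0.17) followed and did not pass. TNFAIP6, a cumulus matrix protein named after its values were seen, differed by -1.75 (limma adjusted p = 0.638). It read 3.05, 2.99 and 7.38 in the superovulated and 4.25, 8.47 and 5.96 in the synchronized group, highest on superovulated array 3 and synchronized array 2. In the blood and immune list 0 of 9 were called by limma, also 0 at an unadjusted p below 0.05, and the mean was 2.66 to 2.71 against 2.69 to 2.78. HBA, CD14, ITGAM and CD3E, the members with the smallest p there, differed by -0.11 to -0.03. The part of these markers in the DNMT3A difference was not tested.

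Genes that serve the methyltransferases were compared in 6 lists with 53 measured genes, each gene represented by its brightest probe set. None was called in limma in either direction, against 1.3% of genes called as higher and 0.0218% as lower over the array. At an unadjusted p below 0.05 there were 5, all higher in the superovulated group, against 10% of all genes in either direction. A p that misses the threshold does not show that a gene did not differ. The list medians lay between -0.02 and 0.06, against -0.02 over all genes.

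**Figure D4:**
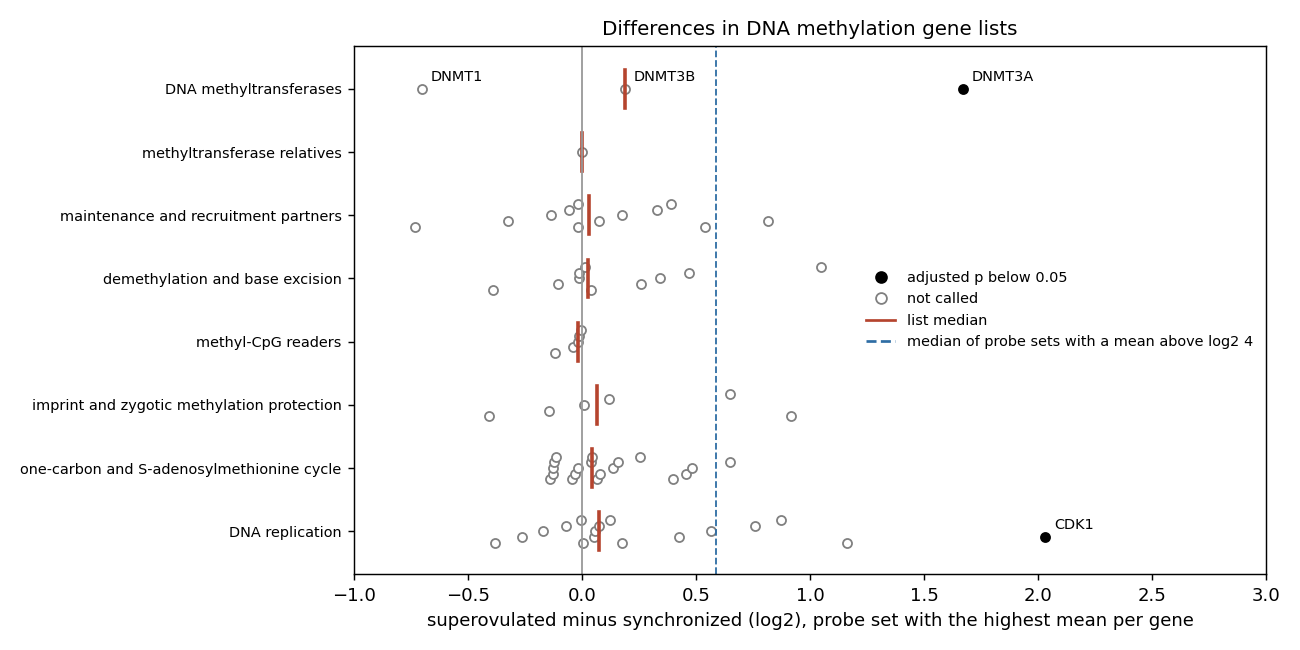
Log2 difference, superovulated minus synchronized, of each measured gene in the methylation lists and in DNA replication, with filled points for adjusted p below 0.05, red bars for list medians and a dashed line at 0.59, the median of probe sets with a mean above log2 4. Only DNMT3A (1.67) and CDK1 (2.03) are filled.

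Of 2 listed relatives of the family 1 was measured, and it gave no usable signal. TRDMT1, a homologue that methylates transfer RNA, read 2.60 to 2.70 on all 6 arrays with equal group means of 2.63. DNMT3L, the catalytically inactive cofactor of the de novo enzymes, had 0 probe sets under its symbol, as did TET1, TET2 and TET3, which oxidize methylcytosine, and the maternal protection factor DPPA3.

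Of the maintenance and recruitment partners, 12 of 20 listed genes were measured and 0 were called, with 1 at an unadjusted p below 0.05 and a median of 0.03. That gene was HDAC1, a histone deacetylase that binds DNMT1, which read 3.10, 3.86 and 3.67 on the superovulated and 2.66, 2.84 and 2.69 on the synchronized arrays (difference 0.81, limma adjusted p = 0.385). The groups did not overlap for HDAC1, but all values were under log2 4. The heterochromatin methyltransferase SUV39H1 (-0.14), the replication ligase LIG1 (-0.73) and the Polycomb enzyme EZH2 (0.33) followed, and none passed. LIG1 read 4.58 on synchronized array 2 and 2.71 to 3.07 elsewhere.

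UHRF1, which brings DNMT1 to hemimethylated DNA, varied more within groups than between them. Its brighter probe set read 2.71, 2.55 and 4.70 on superovulated arrays 1 to 3, against 2.79, 5.32 and 2.82 for the synchronized arrays. Superovulated array 3 and synchronized array 2 were bright and the other 4 were at background, so the groups overlapped fully (difference -0.32 ± 0.98 SE, limma adjusted p = 0.840). A second UHRF1 probe set read 3.28 to 3.67 throughout (difference -0.04).

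The same 2 arrays were the highest of their groups for other partners, which were chosen after their values were seen. UHRF2, the paralogue of UHRF1, was bright on every array at 7.90, 7.71 and 8.44 superovulated and 5.46, 9.76 and 7.66 synchronized. Its synchronized arrays spanned 4.30 log2 units, and the difference of 0.39 ± 1.13 (SE) was well within that spread. PCNA, the replication clamp that holds DNMT1 at the fork, read 4.15, 4.28 and 4.82 against 2.61, 5.33 and 3.69. MAT2B, a regulatory subunit of the enzyme that makes the methyl donor S-adenosylmethionine, read 3.66, 3.56 and 4.61 against 3.37, 5.45 and 3.35.

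Of the 16 genes in the 6 lists that exceeded log2 4 on any array, 9 were highest on superovulated array 3 and synchronized array 2 within their groups. Over the whole array the same held for 1229 of 2881 probe sets above that limit (42.7%), so the pattern is not particular to these lists. Some of the 9 genes, such as EZH2, LIG1 and UHRF1, exceeded log2 4 on these arrays alone, so the count is in part set by that limit. LIG1 was at background on superovulated array 3, at 2.75 against 2.72 and 2.71 on superovulated arrays 1 and 2. Oocyte transcripts showed this pattern as well, for all 3 that exceeded log2 4: the nuclear import factor KPNA7 at 5.94, 5.98 and 7.78 against 4.04, 9.02 and 6.11, and the zona pellucida genes ZP2 and ZP4. None of the 8 measured oocyte genes was called by limma, and the list mean was 3.04 to 3.69 and 2.85 to 4.45. At an unadjusted p below 0.05 there were 2, both lower, against 10% of all genes in either direction. GDF9 (-0.16), BMP15 (-0.35), ZP3 (-0.02) and MOS (-0.32) had the smallest p. The 2 were GDF9, at 2.57 to 2.85 over the arrays, and BMP15, at 2.50 to 3.08, both near background, so no fall is read from them. Neither DNMT1 nor the bright DNMT3A probe set had this array pattern in full: DNMT1 read 3.02 on superovulated array 3, the lowest of the 6, and DNMT3A 3.54 on synchronized array 2. DNMT3A was, however, highest of its group on superovulated array 3 (5.50). DNMT1 read 4.01 on synchronized array 2, between 3.08 and 4.14 on synchronized arrays 1 and 3. Without both of these arrays the DNMT3A difference was 1.52 (adjusted p = 0.301) and that of DNMT1 -0.56 (adjusted p = 0.498), with 1 call over the whole array in that fit of 4 arrays.

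**Figure D5:**
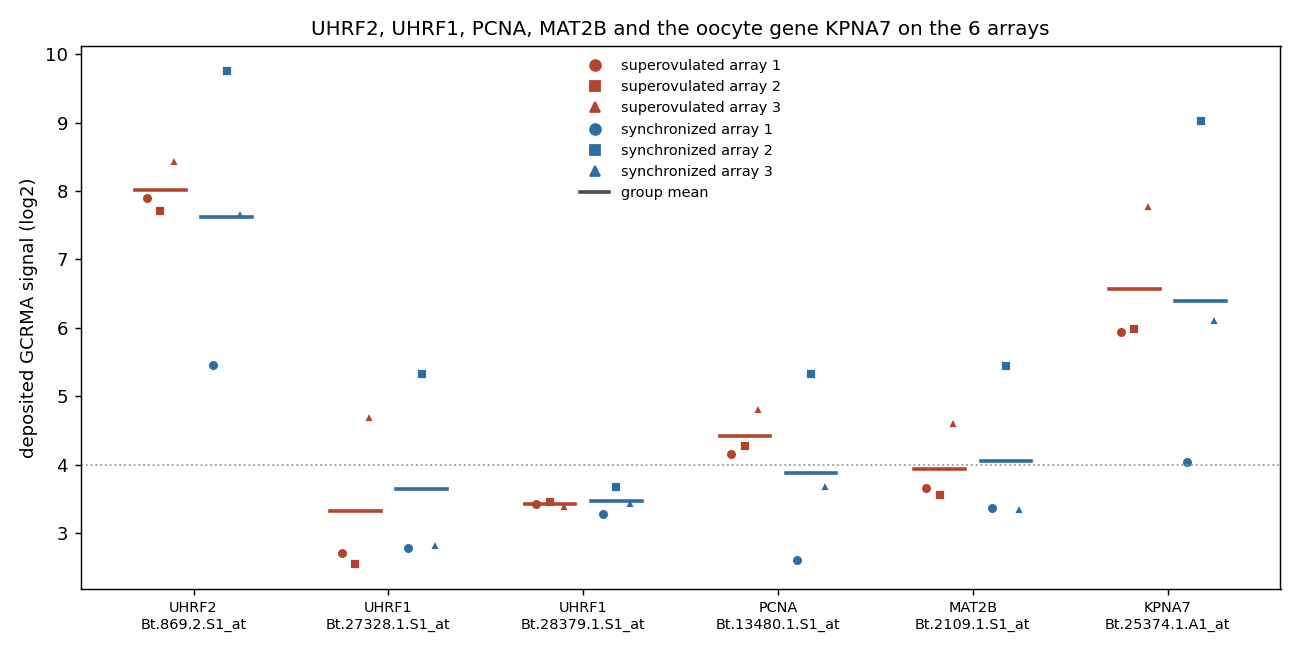
Deposited log2 signal of UHRF2, both UHRF1 probe sets, PCNA, MAT2B and the oocyte gene KPNA7 on each superovulated (red) and synchronized (blue) array, with bars at group means and a dotted line at log2 4. Superovulated array 3 and synchronized array 2 are the highest of their groups except for superovulated array 3 in the second UHRF1 probe set.

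Demethylation and base excision genes had 10 of 17 measured, 0 called and 1 at an unadjusted p below 0.05, with a median of 0.03. That gene was the abasic-site endonuclease APEX1 (0.47, adjusted p = 0.636). POLB, the gap-filling polymerase, read 5, 5.20 and 5.16 on the superovulated and 3.60, 4.98 and 3.64 on the synchronized arrays. The groups were separated by 0.02 only, because synchronized array 2 was close to the superovulated values. The POLB difference was 1.05 ± 0.41 (SE) with limma adjusted p = 0.636, and without synchronized array 2 it was 1.5 and passed (adjusted p = 0.0273). PARP1 (0.26) and the repair scaffold XRCC1 (-0.39) did not pass.

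The methyl-CpG reader list had 5 of 9 genes measured and 0 called, also 0 at an unadjusted p below 0.05. All were dim, between 2.68 and 3.51, with a median difference of -0.02 and none above 0, against 3190 of 9155 above 0 over all genes. MBD5 (-0.12), MBD1 (-0.04), ZBTB33 (-0.02) and MBD3 (-0.01) had the smallest p.

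Genes that protect imprints and zygotic methylation had 6 of 11 measured, 0 called and 1 at an unadjusted p below 0.05, with a median of 0.06. The insulator protein CTCF differed by 0.12 near background (adjusted p = 0.450). YY1, a zinc finger factor, read 4.45, 5.41 and 4.33 on the superovulated and 3.29, 3.82 and 4.33 on the synchronized arrays, a difference of 0.92 (adjusted p = 0.636). Its S1_at probe set, named after its values were seen, read 4.73, 4.2 and 4.06 against 2.85, 2.88 and 2.88, a difference of 1.46 just outside the threshold (limma adjusted p = 0.0605). ARID4B (0.65) and the histone methyltransferase SETDB1 (-0.15) did not pass.

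The folate and S-adenosylmethionine cycle, which supplies the methyl groups, had 19 of 24 measured, 0 called and 2 at an unadjusted p below 0.05, with a median of 0.04. Those were MTHFD1L, a mitochondrial folate enzyme (0.65, adjusted p = 0.556), and the glycine methyltransferase GNMT (0.25, adjusted p = 0.636). Methionine synthase MTR (-0.13) and AMD1, which draws S-adenosylmethionine into polyamine synthesis (0.45), did not pass. AMD1 alone in this list had a mean above log2 4.

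DNA replication genes were included because DNMT1 acts at the fork. Of 17 measured, 1 was called as higher (1.3% over all genes) and 0 as lower (0.0218%), and the median was 0.07. At an unadjusted p below 0.05 there were 5 in either direction, all of them higher, against 10% of all genes in either direction. The called gene was the mitotic kinase CDK1, which rose by 2.03. Its synchronized values, 2.58 to 2.79, were at background, so the size of that rise is uncertain. MCM6 of the replicative helicase (1.16, adjusted p = 0.171), the clamp loader subunit RFC4 (0.57) and the polymerase subunit POLA1 (0.87) did not pass.

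The genes whose pattern over the 6 arrays was most like that of the bright DNMT3A probe set were SRSF3, IFT43, NT5DC1, PRDX2 and GBE1. They were the 5 highest by Pearson correlation among 965 bright probe sets of other genes with 1 symbol. The splicing factor SRSF3 came first (r = 0.984), with 6.64, 6.56 and 6.48 on the superovulated and 5.15, 4.81 and 5.01 on the synchronized arrays. The intraflagellar transport gene IFT43 (r = 0.983) read 5.05, 4.84 and 4.95 against 3.45, 2.85 and 3.29. NT5DC1 followed at r = 0.983, the antioxidant enzyme PRDX2 at 0.980 and the glycogen branching enzyme GBE1 at 0.978. All 5 separated the groups as DNMT3A did, with differences of 1.23 to 1.87, and these correlations describe 6 arrays that share 1 group contrast.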

How the data were processed

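Bovine blastocysts were measured on 6 Affymetrix arrays, 3 per group. The authors deposited a log2 signal for every probe set on every array, which they made with GCRMA (version not stated) per the submitters' processing notes. GCRMA corrects background, normalizes and summarizes probes. Joint normalization of the 6 arrays is not stated. Of 24128 probe sets, 112 controls were set aside. Symbols came from the platform annotation: 13292 tested probe sets had 1 symbol, 86 several and 10638 none. The 6 methyltransferase probe sets matched the ARS-UCD2.0 gene table by gene identifier.

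The deposited values were fitted without further scaling with limma 3.58.1 in R 4.3.3 (group as the only term, two-sided, Benjamini-Hochberg over 24016 probe sets, call at adjusted p below 0.05). The procedure was tested on simulated data. Precision is limited by the 3 arrays per group. The genes and lists were chosen with earlier results of these data known. All methyltransferase probe sets are named, and in each list the called members and up to 4 with the smallest p, with UHRF1, TET1, TET2, TET3, DNMT3L, TRDMT1 and DPPA3 in any case. Alternatives covered scaling, a filter on dim probe sets, the variance model, array weights, a replicate block and left-out arrays. Leaving out superovulated array 3 and synchronized array 2 together was added after seeing the data. Genomic coordinates and probe sequences were not used here.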

Additional observations from a re-analysis of the deposited data

How the results depend on the processing

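The DNMT3A difference kept its direction under all 14 alternatives (0.98 to 1.86) and its call under 4. Of these, 1 was the test of bright probe sets alone, which DNMT3A entered through its superovulated values, so nothing is read from it. The DNMT1 difference kept its direction under all 13 it could be fitted in (-1.40 to -0.32) and was called under 2. The count of called methyltransferase probe sets, 1 as reported, was 0 after a second quantile normalization, with an intensity trend, with the replicate block and with superovulated array 3 and synchronized array 2 both left out, and 0 to 2 when single arrays were left out. With centring on bright probe sets it was 1, the call being DNMT1 as lower. The 172 calls over the whole array became 28 after a second quantile normalization, 50 with an intensity trend, 441 among bright probe sets alone, 515 with array weights, 1 with both of these arrays left out and 26 to 137 when single arrays were left out. Centring on bright probe sets gave 529, split into 211 rises and 318 falls, against 167 and 5 as reported. The replicate numbers did not pair the arrays (correlations of same-numbered deviations 0.54, -0.40 and -0.41, and not every array correlated best with its own number). The replicate block gave 0 calls by limma, with 1382 probe sets at an unadjusted p below 0.05, and adjusted p = 0.229 for DNMT3A. The methylation lists gained 1 call with centring on bright probe sets (LIG1, lower) and 0 to 1 when single arrays were left out. Differences near 0 changed sign for the A1_at probe set of DNMT3A (0.0067 with median centring) and for the S1_a_at probe set of DNMT3B (-0.51 with centring on bright probe sets, -0.053 to 0.31 when single arrays were left out). The causes of these changes were not tested, beyond the fewer arrays or probe sets that some alternatives use. Signals near background limit what can be seen for DNMT1, DNMT3B and most list genes.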
